A study of Homo sapiens with 4 samples.

Results

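Aminoacyl-tRNA synthetases are the enzymes that attach each amino acid to its transfer RNA. The 38 genes described here are 20 that code for the cytosolic enzymes, 16 that code for the mitochondrial enzymes, and AIMP1 and AIMP2, which code for scaffold proteins of the cytosolic multi-synthetase complex. They were chosen by name, as GENCODE 29 symbols of the enzymes and scaffolds, and all 38 of 38 were found among the 60308 gene identifiers of the tables. RNA-seq was run on VCaP cells, an established line from a human prostate cancer with the TMPRSS2-ERG fusion, kept in medium with 10% serum. The cells had been transfected with an siRNA against ZBTB7A, a zinc finger transcriptional repressor (siZBTB7A, 2 tables), or with a non-targeting siRNA (siNTC, 2 tables). The sequence of the siRNAs and the time after transfection are not given in the sources used here, and all groups are a single cell line.

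Cytosolic synthetases supply charged tRNA for the proteins made from nuclear genes, while a separate set of nuclear genes codes for enzymes that are imported to charge the tRNAs of the mitochondrial genome. Uncharged cytosolic tRNA activates the kinase GCN2 (gene EIF2AK4), which raises translation of the transcription factor ATF4, and ATF4 in turn induces many cytosolic synthetase genes. Several cytosolic enzymes work in a multi-synthetase complex held together by AIMP scaffolds. GARS and KARS each code for both a cytosolic and a mitochondrial form and were kept with the cytosolic genes. EPRS codes for 1 protein that charges tRNA with glutamate and with proline.

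The tables of each group were compared before any averaging. Over all genes with at least 20 reads they differed by no more than read sampling, with a chi-square per degree of freedom of 0.995 in siZBTB7A (12645 genes) and 0.993 in siNTC (12762 genes). Exceptions were the 63 genes with at least 10000 reads in the siNTC tables, at 1.52 (chi-square p = 0.00483), and the ratio of cytosolic to mitochondrial-enzyme reads between the siZBTB7A tables, given below. The tables were counted as 1 library per group, so no difference below has a replicate check. Gene reads came to 5556061 and 5745862 in the siZBTB7A tables and 5737738 and 5927656 in the siNTC tables. ZBTB7A itself had 70 and 74 reads in the siZBTB7A tables, against 90 and 115 reads in the siNTC tables, a fold of 0.743 (95% counting interval 0.596 to 0.924). It did not pass the test used throughout, edgeR's quasi-likelihood test with Benjamini-Hochberg adjustment over all 12848 tested genes (adjusted p = 0.0969). That test compares the 2 libraries and not the conditions, and it called 639 genes, 4.97% of those tested, as differing between them at an adjusted p under 0.05. All 10 luminal prostate markers were counted in both libraries, ERG with 3420 reads in siZBTB7A and 3571 reads in siNTC. The 6 matched leukocyte and endothelial markers had 33 and 25 reads in all (CD3E at 0), and the 6 fibroblast markers 161 and 203, of which LUM held 144 and 178 (COL1A2 at 0). The mitochondrial genome took 20.2% of gene reads in siZBTB7A and 17.1% in siNTC, and its part in the results below was examined only by leaving it out of the library size.

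No synthetase gene was called in either direction: 0 of 20 cytosolic genes, 0 of 16 mitochondrial genes and 0 of 2 cofactors, where 4.97% of all tested genes were called (2.25% higher and 2.72% lower). Among the tested genes with reads in the range of the members, 4.74% were called. All 38 members passed the filter on low counts. By edgeR's unadjusted p under 0.05, 1 of 38 members stood out, NARS2, against 17.9% of all tested genes. The smallest adjusted p among the members in edgeR's quasi-likelihood test was 0.209. DESeq2, limma-voom and an exact binomial test on summed reads also called 0 of the 38, although DESeq2 gave no adjusted p for 32 of them. In bulk RNA, fewer expressing cells and less RNA per cell cannot be told apart.

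The reads bounded how large a change could have been missed between these libraries. Folds were computed from the summed reads of each group scaled to the adjusted library totals, with exact 95% intervals that cover counting error only. Of 38 members, 33 had an interval lying wholly between 0.8-fold and 1.25-fold, and all 38 lay between 0.5-fold and 2-fold. The 5 with wider limits were the less deeply counted CARS, FARS2, PARS2, RARS2 and SARS2. Point estimates ran from 0.896 to 1.33, with 23 above 1 and 15 below 1. The SD of the log2 fold over the members was 0.104, where counting alone would give 0.102. Over the 10477 tested genes with reads in the range of the members, the SD was 0.188 where counting alone would give 0.139.

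**Figure D1:**
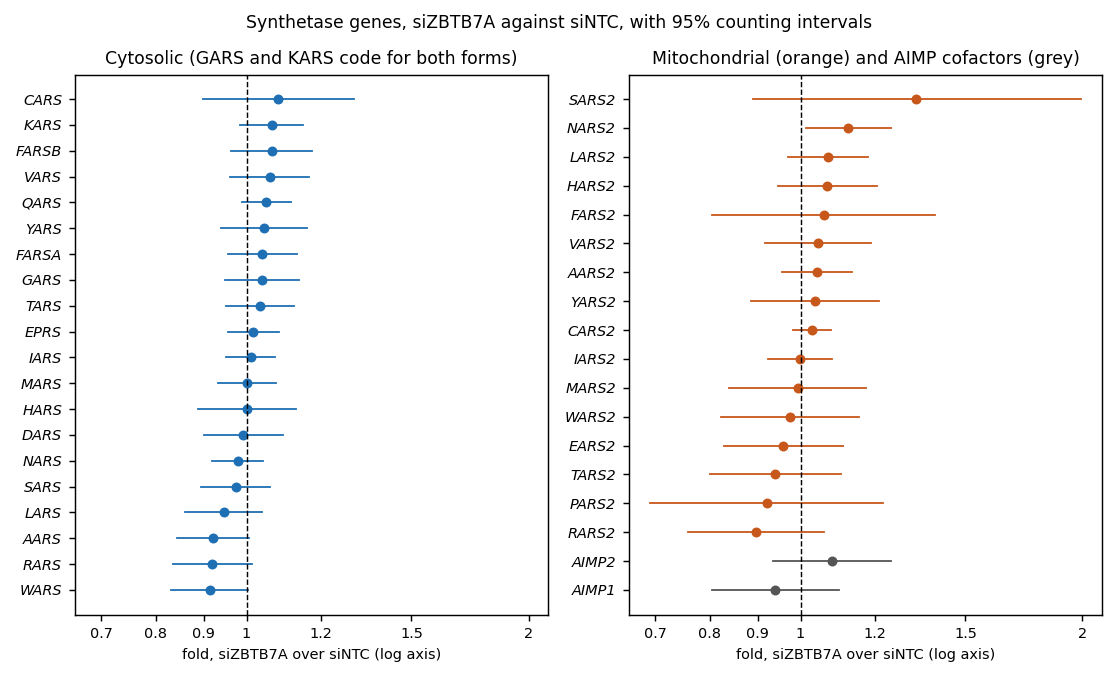
Fold in siZBTB7A over siNTC (log axis) for each synthetase gene, from the summed tables, with points for the fold and lines for the 95% counting interval. Blue genes are cytosolic, orange mitochondrial and grey the AIMP cofactors, and NARS2 is the 1 gene of 38 whose interval leaves out 1.

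Among the cytosolic genes the median fold was 1.014, against 1.001 over all tested genes, and 13 of 20 had a fold above 1. Their folds ranged from 0.913 to 1.08, and 0 of 20 intervals left out 1. QARS, the glutamine enzyme, had 1057 and 1041 reads in the siZBTB7A tables, against 1091 and 1023 reads in the siNTC tables. Scaled to library size this was 193 and 184 CPM (counts scaled to a fixed library total) in siZBTB7A, against 189 and 171 CPM in siNTC, a fold of 1.05 (0.988 to 1.12). The groups' tables overlapped for QARS. NARS, the asparagine enzyme, had 959 and 975 reads in the siZBTB7A tables, against 1010 and 1081 reads in the siNTC tables, a fold of 0.979 (0.920 to 1.04). For SARS, the serine enzyme, the tables held 531 and 526 reads in siZBTB7A, against 554 and 595 reads in siNTC, a fold of 0.974 (0.895 to 1.06). For each of these genes the CPM values of the groups overlapped.

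WARS and CARS marked the ends of the cytosolic range. WARS, the tryptophan enzyme, had 409 and 404 reads in the siZBTB7A tables, against 476 and 466 reads in the siNTC tables. Its CPM of 74.8 and 71.5 in siZBTB7A lay below the 82.3 and 77.9 in siNTC, a fold of 0.913 (0.831 to 1.004) that did not pass (edgeR adjusted p = 0.301). CARS, the cysteine enzyme, had 109 and 127 reads in the siZBTB7A tables, against 131 and 100 reads in the siNTC tables. Its fold of 1.08 (0.898 to 1.30) came from overlapping tables, with the highest CPM (22.6) in a siNTC table. AARS, RARS and LARS, for alanine, arginine and leucine, stood at 0.921, 0.919 and 0.946, also with both siZBTB7A tables below both siNTC tables. FARSA, 1 of the 2 subunits of the phenylalanine enzyme, was the 1 cytosolic gene with both siZBTB7A tables above both siNTC tables, at a fold of 1.04 (0.955 to 1.13). Such separation of the tables is common here: it was found for 12 of 38 members, and for 46.9% of all tested genes.

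Division of the cytosolic genes by what their enzymes are known for gave no group with a called member. The 8 synthetases of the multi-synthetase complex (DARS, EPRS, IARS, KARS, LARS, MARS, QARS and RARS) had a median fold of 1.006, and the 12 outside it 1.037. EPRS had 984 and 993 reads in the siZBTB7A tables and 1003 and 1055 reads in the siNTC tables, and IARS, for isoleucine, 1040 and 1093 reads against 1085 and 1149 reads in siNTC. These are folds of 1.02 (0.955 to 1.08) for EPRS and 1.01 (0.952 to 1.07) for IARS. By fold structure of the catalytic domain, the 9 class I genes had a median fold of 1.010 and the 10 class II genes 1.017, with EPRS holding both kinds. The 12 genes on a list of those reported to be induced through ATF4 had a median fold of 1.006, and the other 8 had 1.045.

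AIMP1 and AIMP2, the scaffold genes, had point estimates on opposite sides of 1. AIMP2 had 176 and 211 reads in the siZBTB7A tables, against 197 and 182 reads in the siNTC tables, a fold of 1.08 (0.935 to 1.25). AIMP1 had 147 and 164 reads in the siZBTB7A tables, against 176 and 174 reads in the siNTC tables, a fold of 0.940 (0.805 to 1.10). The tables overlapped for AIMP2, while both siZBTB7A values of AIMP1 in CPM (26.9 and 29.02) lay below both siNTC values (30.4 and 29.09).

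**Figure D2:**
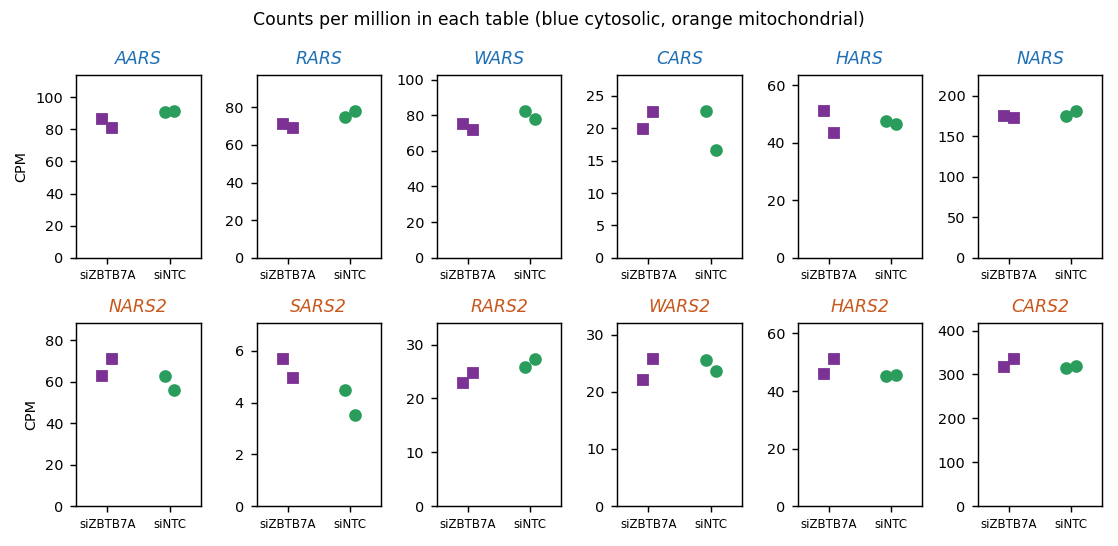
CPM in each of the 4 tables for 12 synthetase genes, siZBTB7A as squares and siNTC as circles, on axes that start at 0. NARS2, SARS2 and HARS2 have both siZBTB7A tables at or above the siNTC tables, and AARS, RARS, WARS and RARS2 have both below. CARS, HARS, NARS, WARS2 and CARS2 overlap.

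Among the mitochondrial genes the median fold was 1.032 and 9 of 16 had a fold above 1. Folds ranged from 0.896 to 1.33, a wider range than in the cytosolic genes, and so was the counting error, with a median of 698 summed reads per mitochondrial gene and 1938 per cytosolic gene. The SD of the log2 fold was 0.133 in the mitochondrial genes, where counting alone would give 0.131. In the cytosolic genes it was 0.075, where counting alone would give 0.069.

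NARS2, which codes for the mitochondrial asparagine enzyme, was the 1 member whose counting interval left out 1, where 17.1% of all tested genes had such an interval (8.54% above 1 and 8.52% below). It had 344 and 400 reads in the siZBTB7A tables, against 364 and 336 reads in the siNTC tables. In CPM these were 62.9 and 70.8 in siZBTB7A and 62.9 and 56.2 in siNTC, so that the nearest tables of the groups were level. The fold was 1.12 (1.013 to 1.25), and the gene did not pass (edgeR adjusted p = 0.209). Its log2 fold of 0.17 was 0.08 without the second siZBTB7A table and 0.09 without the second siNTC table, and 0.25 without either of the other tables. Over the alternatives that gave one, its adjusted p ran from 0.127 to 0.777, and DESeq2 gave none.

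SARS2 and RARS2 held the ends of the mitochondrial range with few reads. SARS2, for serine, had 31 and 28 reads in the siZBTB7A tables, against 26 and 21 reads in the siNTC tables, a fold of 1.33 (0.890 to 1.99). RARS2, for arginine, had 125 and 140 reads in the siZBTB7A tables, against 150 and 163 reads in the siNTC tables, a fold of 0.896 (0.758 to 1.06). Neither difference exceeded counting error, and the interval of SARS2 was the widest of the 38. CARS2, for cysteine, was the most deeply counted member, with 1731 and 1888 reads in the siZBTB7A tables, against 1814 and 1909 reads in the siNTC tables. Its fold of 1.03 (0.982 to 1.08) was bounded more tightly than any other member's. IARS2, for isoleucine, had 615 and 631 reads in the siZBTB7A tables, against 673 and 647 reads in the siNTC tables, a fold of 0.999 (0.924 to 1.08).

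Between the classes, the ratio of cytosolic to mitochondrial-enzyme reads differed less between the libraries than between the siZBTB7A tables. Both siZBTB7A tables lay above both siNTC tables in 5 of 16 mitochondrial genes and below in 1, where the shares of all tested genes were 23.5% and 23.4%. Among the 20 cytosolic genes the same was found for 1 above and 4 below. The 5 mitochondrial genes include NARS2, whose nearest tables were level at 62.9 CPM. The summed reads of the mitochondrial genes gave a fold of 1.03 (1.00004 to 1.06), and those of the cytosolic genes 1.01 (0.988 to 1.02). CARS2 alone held 3619 of the 10505 mitochondrial-enzyme reads in siZBTB7A and 3723 of the 10821 in siNTC. The summed fold of the mitochondrial genes was not computed without it. Cytosolic genes held 0.202% and 0.194% of gene reads in the siZBTB7A tables, against 0.201% and 0.202% in the siNTC tables. Mitochondrial genes held 0.0907% and 0.0951% in the siZBTB7A tables, against 0.0941% and 0.0915% in the siNTC tables. For each mitochondrial-enzyme read there were 2.23 and 2.04 cytosolic reads in the siZBTB7A tables, against 2.14 and 2.21 in the siNTC tables. The siZBTB7A tables thus held both the highest and the lowest of the 4 ratios. Over the summed tables the ratio was 2.13 in siZBTB7A and 2.18 in siNTC, a ratio of ratios of 0.980 (counting interval 0.948 to 1.01). Without the first siZBTB7A table it was 0.939 (0.903 to 0.978), and without the second it was 1.02 (0.983 to 1.07), so the side of 1 depended on which table was used. Between the 2 siZBTB7A tables themselves the ratio of ratios was 1.09 (1.04 to 1.14), farther from 1 than between the libraries. Cytosolic transcripts had a median GC content of 47.7% and a median length of 3304 bases, and mitochondrial ones 51.2% and 2915 bases.

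Levels per length spanned a wide range within the set and were nearly the same in both libraries. They are given in TPM, each gene's share of all transcripts in a library scaled to a fixed total, from reads per kilobase of the longest annotated transcript, and as the mean of both libraries unless a library is named. Both the values and the order of genes depend on the length used, since the expressed transcript may be shorter than the longest one. The cytosolic genes had a median of 49.1 TPM and a range of 5.65 to 103 TPM, and the mitochondrial genes a median of 18.5 TPM and a range of 3.58 to 145 TPM. QARS led the cytosolic genes at 105 TPM in siZBTB7A and 101 TPM in siNTC, followed by NARS at 88.6 and 91.3 TPM and SARS at 79.7 and 82.6 TPM. KARS (77.2 and 73.2 TPM) and FARSA (74.2 and 72.0 TPM) came next, with values that overlapped between the genes. IARS, MARS, EPRS, RARS, GARS and DARS lay between 65.0 and 48.8 TPM. AARS, WARS, TARS, FARSB and YARS lay between 39.8 and 30.4 TPM, and VARS, LARS and HARS between 26.5 and 21.4 TPM. CARS, at 5.84 TPM in siZBTB7A and 5.46 TPM in siNTC, was the lowest of the cytosolic genes. With the union of annotated exons as the length, NARS led the cytosolic genes at 76.8 TPM, before QARS at 69.9 TPM and FARSA at 69.6 TPM. On that scale SARS went from rank 4 to rank 9 among the 38 members, and MARS from rank 8 to rank 16.

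On the longest-transcript scale the mitochondrial genes had 1 member far above the rest, a gap that was much smaller with the union of annotated exons. CARS2 stood at 146 TPM in siZBTB7A and 143 TPM in siNTC, above every cytosolic gene and at the 98.0 percentile of protein-coding genes. With the union of annotated exons as the length, CARS2 was at 54.8 TPM, against 48.1 TPM for IARS2, and was passed by NARS, QARS, FARSA and EPRS. IARS2 at 49.9 TPM, NARS2 at 39.8 TPM and AARS2 at 37.5 TPM followed. HARS2, LARS2, RARS2 and YARS2 lay between 29.6 and 21.1 TPM, and TARS2, WARS2, EARS2, MARS2 and VARS2 between 15.9 and 10.7 TPM. PARS2 (5.96 TPM), FARS2 (3.93 TPM) and SARS2 (3.58 TPM) were the lowest. Another gene is annotated over SARS2 on the same strand, and whether reads were lost to it was not tested.

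**Figure D3:**
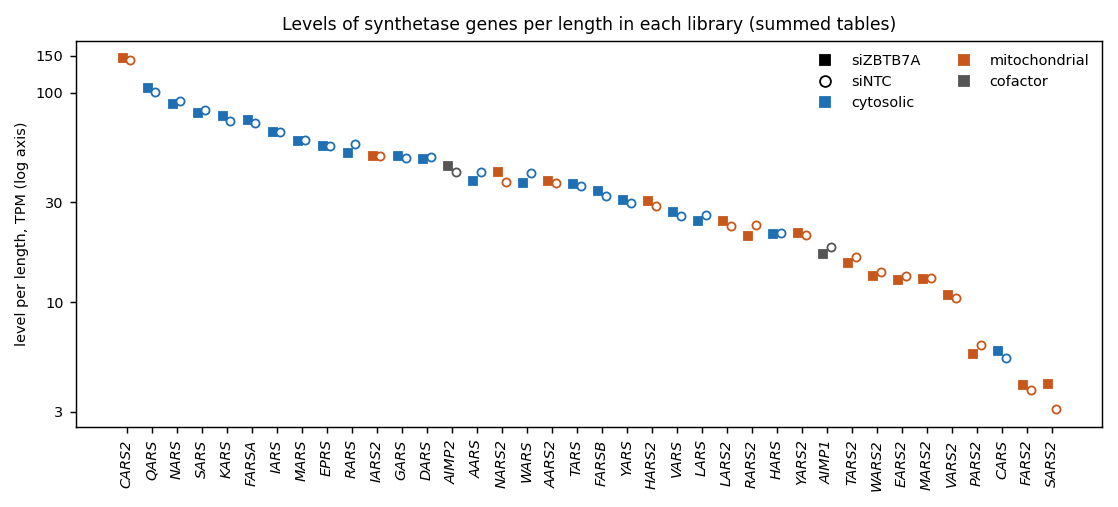
Level per length in TPM (log axis) of the 38 genes in order of their mean, with filled squares for siZBTB7A and open circles for siNTC, each from summed tables. Cytosolic genes (blue) fill most of the upper part and mitochondrial genes (orange) most of the lower part, with CARS2 highest at 145 TPM and CARS among the lowest at 5.65 TPM.

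Genes for the same amino acid were set side by side as 17 pairs of a cytosolic and a mitochondrial gene. EPRS and FARS2 each enter more than 1 pair, so the pairs are not all separate. The cytosolic gene was higher per length in 15 of 17 pairs (11 of 17 with the union of exons), with a median ratio of 2.46. The exceptions on the first scale were CARS to CARS2, at a level ratio of 0.040 in siZBTB7A and 0.038 in siNTC, and HARS to HARS2, at 0.698 and 0.745. At the other end, SARS exceeded SARS2 with a level ratio of 19.6 in siZBTB7A and 26.7 in siNTC, and FARSA exceeded FARS2 with a ratio of 18.5 and 18.8. AARS to AARS2 and LARS to LARS2 were near parity, with mean level ratios of 1.06 in both pairs. WARS to WARS2 stood at 2.78 in siZBTB7A and 2.96 in siNTC. With the union of exons, further pairs fell below 1. They were YARS to YARS2 at 0.576, LARS to LARS2 at 0.898, AARS to AARS2 at 0.915 and IARS to IARS2 at 0.958. WARS2 had 121 and 145 reads in the siZBTB7A tables, against 148 and 141 reads in the siNTC tables, a fold of 0.974 (0.821 to 1.15).

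Between the libraries few pair ratios differed beyond counting error, though the intervals of pairs with few reads were wide. The interval of the ratio of ratios left out 1 in 1 of 17 pairs, NARS to NARS2 at 0.870 (0.770 to 0.983), where the point estimates of the members were 0.979 and 1.12. AARS to AARS2 followed at 0.884 (0.781 to 1.002) and LARS to LARS2 at 0.885 (0.771 to 1.015). The remaining pairs lay between 0.733 for SARS to SARS2 (0.484 to 1.10) and 1.10 for EPRS to PARS2 (0.823 to 1.48). FARSA and FARSB, the subunits of the cytosolic phenylalanine enzyme, kept a level ratio of 2.18 in siZBTB7A and 2.23 in siNTC, a ratio of ratios of 0.978 (0.858 to 1.12).

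**Figure D4:**
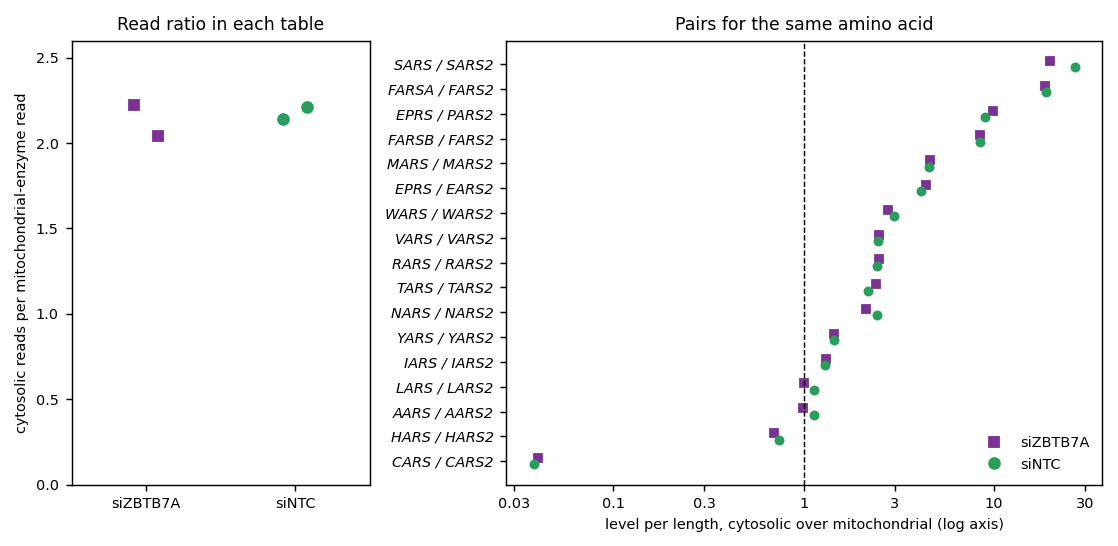
Left, cytosolic reads per mitochondrial-enzyme read in each table, siZBTB7A as squares (2.23 and 2.04) and siNTC as circles (2.14 and 2.21). Right, level per length of the longest annotated transcript, cytosolic over mitochondrial gene, for 17 pairs (log axis). The dashed line marks equal levels, and on this scale only CARS to CARS2 and HARS to HARS2 lie clearly to its left.

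HARS and HARS2, the histidine pair, lie head to head on chromosome 5, and the stretch between their RefSeq starts is shown. RefSeq promoter windows (GRCh38.p14) place 84 bases between the annotated starts, at chr5:140691371-140691454. On the plus strand, in the direction of HARS2, with capitals for the letters CCGGAAGT or their reverse complement, they read as follows.
HARS and HARS2 interval: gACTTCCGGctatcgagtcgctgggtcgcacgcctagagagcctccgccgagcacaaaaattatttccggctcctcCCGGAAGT
These letters, the core recognised by many ETS factors, were searched on both strands after the values were seen, and 1 match faced each gene. At least 1 match was found in the windows of 7 of 32 members with a window in the table, and in 4.44% of all 27305 windows of 300 bases. The windows of HARS and HARS2 share 184 bases that hold this interval, so the same sites count for both genes among the 7. HARS had 279 and 245 reads in the siZBTB7A tables, against 276 and 278 reads in the siNTC tables, a fold of 1.001 (0.887 to 1.13). HARS2 had 251 and 288 reads in the siZBTB7A tables, against 261 and 273 reads in the siNTC tables, a fold of 1.07 (0.946 to 1.21). Annotation places HARS2 and WDR55 over HARS on the other strand, where 64 and 73 reads were counted in siZBTB7A and siNTC.

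A letter match to the amino acid response element, through which ATF4 acts, was present in 6 cytosolic members and 1 mitochondrial member. The motif searched was TGATGNAA on both strands, from 250 bases before to 50 bases after each RefSeq start. It matched in 7 of the 32 members that had a window and in 3.67% of the 27305 windows in the table. DARS, LARS, VARS, YARS, AARS2 and VARS2 had no window in the table. The 7 sites are printed with 30 bases each on the strand of the gene (GRCh38.p14), with the motif, or its reverse complement, in capitals.
AARS: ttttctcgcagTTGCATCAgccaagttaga
CARS: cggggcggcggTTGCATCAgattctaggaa
IARS: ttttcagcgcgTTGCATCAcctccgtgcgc
MARS: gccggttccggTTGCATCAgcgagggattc
NARS: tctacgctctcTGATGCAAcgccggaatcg
TARS: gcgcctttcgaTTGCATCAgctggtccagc
YARS2: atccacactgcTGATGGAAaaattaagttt
The sites lie at chr16:70289675-70289704 for AARS, chr11:3057407-3057436 for CARS and chr9:92293692-92293721 for IARS, all genes on the minus strand. Those of MARS at chr12:57488053-57488082 and TARS at chr5:33440956-33440985 are on the plus strand. The site of NARS is at chr18:57621804-57621833 and that of YARS2 at chr12:32756076-32756105, both for genes on the minus strand. In the 6 cytosolic genes the matched letters were the same, TTGCATCA or its reverse complement, while YARS2 carried another base at the free position. AARS and YARS2 had the match 187 and 197 bases before the start, and the other 5 had it within 15 bases of the start.

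The 6 cytosolic genes with this match had folds on both sides of 1, each with a counting interval that included 1. Their folds were 0.921 (0.842 to 1.006) for AARS, 0.979 for NARS, 1.002 (0.933 to 1.08) for MARS, 1.01 for IARS, 1.03 (0.951 to 1.12) for TARS and 1.08 for CARS. MARS, for methionine, was counted with 744 and 753 reads in the siZBTB7A tables, against 776 and 805 reads in the siNTC tables.

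Genes of the amino acid response itself gave 0 calls of 17 tested, out of 19 listed, where 4.97% of all tested genes were called. At that share, a list of this length with no call is near the background. ATF4 had 2222 reads in siZBTB7A and 2266 reads in siNTC, a fold of 1.04 (0.978 to 1.10), and ASNS, which codes for asparagine synthetase, 1.06 (0.954 to 1.18). The median fold of the list was 1.015. By edgeR's unadjusted p under 0.05 there were 4 of 17, where 17.9% of all tested genes had such a p, and none of the 4 passed the adjustment. Chosen after their values were seen, they were the serine synthesis gene PHGDH at 1.099 (1.01 to 1.19), the amino acid transporter subunit gene SLC3A2 at 1.13 (1.016 to 1.25) and CEBPB, a transcription factor gene, at 1.33 (1.02 to 1.75). EIF2AK4, which codes for GCN2, stood at 0.882 (0.794 to 0.979).

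Other genes around tRNA charging gave 1 call, where 4.97% of all tested genes were called. For lists of this length, 1 call is near that share. Among further genes of the synthetase family and complex, 0 of 3 tested were called. TARSL2 stood at 1.016 (0.816 to 1.26) and the complex scaffold gene EEF1E1 at 0.717 (0.473 to 1.08). Of 8 tested genes for other charging routes and for the checking of charged tRNA, 0 were called, with folds from 0.811 to 1.07. Delivery of charged tRNA to the ribosome was covered by 6 tested genes, of which 1 was higher and 0 lower, where 2.25% of all tested genes were called higher and 2.72% lower. The higher gene was EEF1A2, a tissue-restricted elongation factor gene, with 1956 and 2074 reads in the siZBTB7A tables, against 1854 and 1918 reads in the siNTC tables. Both siZBTB7A tables, at 358 and 367 CPM, lay above both siNTC tables, at 320 and 321 CPM, a fold of 1.13 (1.08 to 1.18, edgeR adjusted p = 2.07e-05). With a correction for GC content and length its log2 fold was 0.08 and not called (edgeR adjusted p = 0.196), against 0.18 without the correction. The GC content of its longest transcript is 64.8%, against a median of 48.0% over tested genes. Its widely expressed paralog EEF1A1 stood at 0.965 (0.931 to 1.0005), and reads shared with its many pseudogene copies make that count uncertain. EEF1G was listed at 0 in all 4 tables, also on the opposite strand. Whether its reads were set aside in counting was not tested, so the 0 does not show that the gene is silent.

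Reads on the strand opposite to the members were few in both libraries. They made up 1.43% (exact interval 1.31% to 1.56%) of the reads over the 38 genes in siZBTB7A and 1.45% (1.33% to 1.58%) in siNTC. CARS2, MARS, HARS, AIMP1, AIMP2 and KARS held most of them, and annotation places at least 1 other gene on the opposite strand of each of these. GENCODE 29 names pseudogenes of 12 members, KARS with 3 of them, so some of their reads may have been set aside as mapping to several places. It also places other genes on the same strand over some members, among them SARS2, HARS2, VARS2, MARS2 and YARS2. Reads lying in both genes may have been set aside, which would lower the counts, levels and pair ratios of such members differently. This was not tested.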

How the data were processed

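The deposited tables hold whole-number read counts per gene, not normalized, in the layout of STAR gene counts. Per the submitters' processing notes, STAR 2.4.2a was used with hg19 (GRCh37), and per the labels' protocols the libraries were stranded total RNA. No source used here states the annotation. Counts of the fourth column were used, which exceeded the other strand by 24.9 to 25.5 times. Rows that name no gene held 51.2% of the reads in siZBTB7A and 50.8% in siNTC and were left out. Names, lengths and GC content came from GENCODE 29, which is on another build, and named 55698 of 60308 identifiers. Sequences and their coordinates are from RefSeq tables on GRCh38.p14.

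The main test was edgeR 4.0.16 in R 4.3.3 (robust quasi-likelihood test, TMM, filterByExpr, group as the only term), and its code was tested on simulated data. Nothing in the labels says that the tables come from separate cultures, and p-values measure only counting differences between libraries. Other tools were limma 3.58.1, DESeq2 1.42.0, Python 3.11.15, scipy 1.17.1 and pandas 2.3.3. The rule for the members used names and no measured value, but members and lists were chosen with earlier results of these data known. Genes named with full values were the called ones, the 3 highest per length and the ends of the fold range in each class, both cofactors and 2 pairs (HARS, WARS), and further genes are examples chosen after their values were seen. PECAM1, 1 of 7 leukocyte and endothelial markers listed, was not matched. Most listed genes are given only in the counts, and some are not reported here. Protein sequences were not used here, so the planned identity of paired proteins is not given. Alternatives were other tools, scalings and filters, unstranded counts, a replicate block, leaving out each table, and a spline correction (4 degrees of freedom each) for GC content and length. Leaving CARS2 out of the ratio was added after the data were seen.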

Additional observations from a re-analysis of the deposited data

How the results depend on the processing

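Under all 13 alternatives, 0 cytosolic and 0 mitochondrial genes were called, and 0 of 38 members left its counting interval. The adjusted p of a member was lowest at 0.127, without the first siZBTB7A table. Signs of the point estimates changed for 5 to 7 members when a table was left out, and for 3 with the GC and length correction. That correction brought the median log2 fold to 0.001 in cytosolic and 0.01 in mitochondrial genes, against 0.02 and 0.05 before. With a table left out these medians ranged from -0.004 to 0.04 and from 0.0019 to 0.0727. ZBTB7A was not called under any alternative with an adjusted p, its log2 fold ranging from -0.57 to -0.26 with a table left out. The 639 calls over all genes became 85 (41 higher, 44 lower) with DESeq2, 358 (175 and 183) with the GC and length correction and 303 to 373 with a table left out (373 without the first siNTC table, 353 without the second, 346 without the first siZBTB7A table, 303 without the second). Fewer reads and fewer tables enter the fits without a table. The cause of any of these drops was not tested. The ratio of ratios of cytosolic to mitochondrial reads ranged from 0.939 to 1.02 with a table left out and was 0.980 without CARS2. Same-numbered tables deviated with a correlation of -0.014 over 9378 genes, and the replicate block called 654 genes, 0 of them members. With the union of exons as length, medians were 35.0 TPM in cytosolic and 16.2 TPM in mitochondrial genes. EEF1A2 was called under every alternative except the GC and length correction (edgeR log2 fold 0.08, adjusted p = 0.196), its adjusted p elsewhere ranging up to 0.0172 with DESeq2. The small number of counted reads limits SARS2, FARS2 and PARS2 most.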
